A study of Mus musculus with 285 samples.

Results

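The muscle of the mice with the highest and the lowest Cox8b mRNA was compared across all other genes of the array. Cox8b encodes the muscle and heart form of subunit VIII of cytochrome c oxidase. All 285 mice of the series were ranked by their Cox8b value, and the 71 highest (25%, rounded down), here called high-Cox8b mice, were set against the 71 lowest, called low-Cox8b mice. The remaining 143 mice lay in between. Both groups are thus defined by a measured value and are not groups of the study. They shared every labelled condition. They were F2 animals of both sexes from intercrosses, made in both directions, of C57BL/6J and C3H/HeJ mice, both inbred. Their chow held 4% fat until the age of 8 weeks, and a Western diet with 42% fat and 0.15% cholesterol followed for 12 weeks. Muscle was taken at 20 weeks of age after 12 hours without food. The labels name neither the muscle that was dissected nor the sex, genotype, cross direction or batch of a mouse.

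Every value is a log2 ratio of 1 mouse over a pool of RNA from all mice, so a value compares mice within a gene and says nothing of how abundant a transcript is. The labels state neither the log base nor the direction. Here a deposited value is taken as the log10 of a mouse's signal over that of the pool. Of all pairs of arrays 2.48% correlated below -0.3 (all pairs from -0.745 to 0.801), which does not settle the direction. Whether single arrays are turned was not tested. With all arrays turned round, the groups would trade names, and each difference of another gene given below would keep its value and sign. As mouse over pool the Y-linked genes Eif2s3y and Kdm5d average a linear ratio of 0.796 and 0.942 over all mice, against 23.2 and 3.43 with the sign turned. Usp9y, at 0.998 and 1.02, does not separate the directions. The mean of mice that make up a pool should lie near the pool, which makes mouse over pool the likely direction. Cox8b lay between -0.11 and 1.22 in high-Cox8b mice, with a median of 0.03 and a mean of 0.14 ± 0.26 (SD, n = 71). In low-Cox8b mice it lay between -1.26 and -0.59, with a median of -0.70 and a mean of -0.74 ± 0.13 (SD, n = 71). The groups cannot overlap in Cox8b because Cox8b chose them, and this difference is no result. At the upper edge the last mouse inside had a Cox8b ratio of -0.113 and the first outside -0.115, and at the lower edge the values were -0.586 inside and -0.585 outside. The array holds 1 probe each for Cox8b and for Cox4i1, the widely expressed form of subunit IV. On a number of arrays Cox8b, Cox4i1 and Atp5j2, a gene of ATP synthase, held the same ratio. It was 0.3428 in mouse 73 and 0.7953 in mouse 126, where Cox7a2 had 0.6867 and 0.9143. All such arrays were of mice numbered up to 215. On them Cox4i1 and Atp5j2 repeat the value that chose the mice. The cause, and whether further genes share that value, was not tested. Among the markers of skeletal muscle, Ckm (muscle creatine kinase) and Mylpf (fast myosin light chain) were higher in high-Cox8b mice, by 0.48 ± 0.04 and 0.55 ± 0.05 on the log2 scale. The number after ± is the SE wherever a difference between groups or a slope is given. In whole muscle fewer cells of a type and less RNA per cell cannot be told apart. The slow-fibre markers Myh7 and Tnnt1 differed by 0.34 ± 0.29 (adjusted p = 0.277) and 0.42 ± 0.25 (adjusted p = 0.116). Acta1, Myh4 and Tnnt3 were not analysed here. Not all fast fibre genes shared that direction, and Casq1, of the list that holds Mylpf, fell by 0.51 ± 0.07. Ratios to a pool of the same tissue cannot show whether a marker is present.

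Cytochrome c oxidase, complex IV, is the last enzyme of the mitochondrial respiratory chain. It passes electrons to oxygen and pumps protons, and the gradient drives ATP synthase, complex V. Its catalytic core is encoded in mitochondrial DNA, while the small subunits around it are encoded in the nucleus, made on cytosolic ribosomes and imported. Several of these small subunits exist in a form of contractile muscle and a form found in most tissues, and rodent heart and skeletal muscle use Cox8b where most tissues use Cox8a. Skeletal muscle with more mitochondria relies more on fatty acids and contracts for longer. Nuclear regulators such as the coactivator PGC-1α and the factors NRF1, GABP and ERRα are known to drive many of these genes together.

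The promoter of Cox8b is shown beside those of a second muscle form (Cox7a1), of 2 genes that were clearly higher in high-Cox8b mice (Cox7c and Atp5e, a subunit of complex V) and of the complex IV member that was lower there (Cox6a1). Each run is the 150 bases before the annotated start of transcription, 5′ to 3′ on the gene's strand, from RefSeq (GRCm38.p6). Capitals mark letters that match a searched motif.
Cox8b, chr7:140900447-140900596, minus strand: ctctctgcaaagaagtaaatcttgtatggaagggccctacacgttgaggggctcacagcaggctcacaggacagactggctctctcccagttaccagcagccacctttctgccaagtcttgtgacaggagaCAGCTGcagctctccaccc
Cox7a1, chr7:30184021-30184170, plus strand: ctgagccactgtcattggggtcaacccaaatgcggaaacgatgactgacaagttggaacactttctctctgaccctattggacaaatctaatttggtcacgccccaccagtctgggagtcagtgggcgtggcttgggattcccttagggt
Cox7c, chr13:86046796-86046945, minus strand: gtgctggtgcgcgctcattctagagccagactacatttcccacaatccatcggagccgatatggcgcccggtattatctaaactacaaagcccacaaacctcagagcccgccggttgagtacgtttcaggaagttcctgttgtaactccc
Cox6a1, chr5:115348959-115349108, minus strand: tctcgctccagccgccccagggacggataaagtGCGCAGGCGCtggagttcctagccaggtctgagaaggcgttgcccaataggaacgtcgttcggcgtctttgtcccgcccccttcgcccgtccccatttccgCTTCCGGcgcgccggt
Atp5e, chr2:174464102-174464251, minus strand: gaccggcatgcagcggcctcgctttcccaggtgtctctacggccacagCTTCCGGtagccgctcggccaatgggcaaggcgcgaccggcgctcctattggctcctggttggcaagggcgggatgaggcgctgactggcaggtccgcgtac
The motifs searched were GCGCA followed by any base and GCGC for NRF1, CCGGAAG for the ETS family to which GABP belongs, TCAAGGTCA for the estrogen-related receptors and CAGCTG for an E-box, each on both strands, and TATAAA on the gene's strand. The window ran from 250 bases before the start to 50 bases after it. In Cox8b the capitals are an E-box at position -19, and a further E-box and the TATAAA letters lie after the annotated start, at positions 17 and 5. In Cox6a1 they are an NRF1 match at -117 and, on the other strand, an ETS match at -16, with a further NRF1 match on both strands at -162 outside the printed bases, and in Atp5e an ETS match on the other strand at -102. The 150 bases of Cox7a1 and Cox7c hold none of these letters. Of 33 subunit genes of complexes I, IV and V, Cox8b included, 28 have a promoter in the table. ETS letters were in 25% of these, against 9.12% of 27025 promoters, and NRF1 letters in 17.9%, against 4.78%. Among 25 of 30 mitochondrial ribosomal protein genes the shares were 32.0% for ETS and 24.0% for NRF1. Both motifs contain the letters CG, and these sets are richer in CG than all promoters. The median count of CG per window was 17.5 in subunit, 20 in mitochondrial ribosomal and 7 in all promoters. The part of CG content in these shares was not tested. E-box letters were in 7.14% of the subunit promoters and 16.1% of all, and TATAAA in 3.57% and 8.88%. Letters of the estrogen-related receptors were in 0% of the subunit promoters and 0.407% of all. A match describes letters only.

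High-Cox8b and low-Cox8b mice differed across most of the array. Of 21511 features other than Cox8b, 73.9% differed at an adjusted p under 0.05 (limma, Benjamini-Hochberg over all features), of which 8985 were higher in high-Cox8b mice (41.8%) and 6912 lower (32.1%). A count of called genes therefore says little on its own, and a size of at least 0.2 on the log2 scale was used as a second rule. It was met by 3455 higher (16.1%) and 4118 lower features (19.1%). Of the 11621 named genes, from which the lists are drawn, 73.6% were called, 38.7% higher and 34.9% lower, and 14.1% and 21.0% by the second rule. The median difference over all features was 0.02, with 5th and 95th percentiles of -0.46 and 0.33. All genes of a mouse were read on the array that gave its Cox8b value, so an error that touches a whole array enters both, and its part was not tested. The groups also differed in mouse number, the only order the labels give. Of the lower-numbered mice, up to number 215, 60 were high-Cox8b and 12 low-Cox8b mice, against 11 and 59 of the higher-numbered mice. The mean number was 158 in high-Cox8b and 265 in low-Cox8b mice (two-sided permutation test, p = 1e-05, the smallest that 100000 resamples can give). Medians of Cox8b over runs of 20 numbers lay between -0.34 and -0.09 up to number 230 and between -0.67 and -0.37 from 231 on. What the numbers stand for is not labelled, so the lists central here are also given with runs of 20 numbers as a block, a fit in which 32.4% of features were higher and 26.5% lower. The SD over probes of an array averaged 0.295 in high-Cox8b and 0.338 in low-Cox8b mice (two-sided permutation test, p = 0.001). With that SD as a covariate the list medians for complexes I, IV and V were 0.19, 0.55 and 0.43, close to those below.

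**Figure D1:**
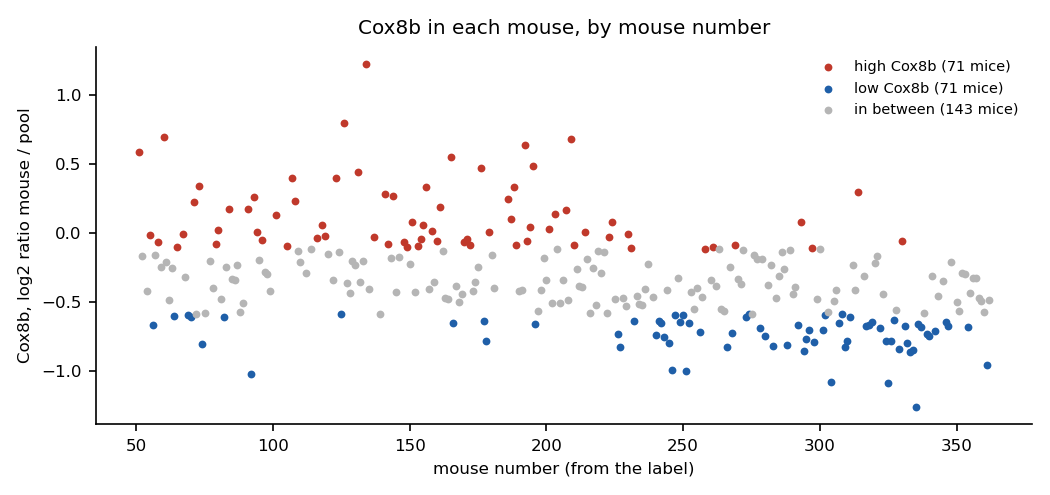
Cox8b (vertical axis, log2 ratio of mouse over pool) in each of the 285 mice against the mouse number in its label (horizontal axis), with high-Cox8b mice, low-Cox8b mice and the mice in between in 3 colours. Of the high-Cox8b mice 60 of 71 are at numbers up to 215, and of the low-Cox8b mice 59 of 71 are above.

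Of the other complex IV genes on the array, 10 of 11 were higher in high-Cox8b mice and 1 was lower, and 8 were higher by at least 0.2. Their median difference was 0.59, against 0.02 over all features. That median is the value of Cox4i1, which on some arrays repeats the Cox8b ratio. The genes next to it in size were Cox7a1 at 0.60 and Cox7a2l at 0.36. The largest difference was that of Cox7a2, the subunit VIIa form of most tissues. Its log2 ratio ran from -0.35 to 1.29 in high-Cox8b mice (median 0.22), against -1.23 to -0.12 in low-Cox8b mice (median -0.53). All 71 high-Cox8b mice lay above the low-Cox8b median, and the difference was 0.78 ± 0.05 (SE), a fold of 1.71 (adjusted p = 2.69e-30). The ranges overlapped only between -0.35 and -0.12. Cox7c, a small subunit with 1 form, ran from -0.45 to 1.21 in high-Cox8b mice (median 0.05), against -1.41 to 0.02 in low-Cox8b mice (median -0.60). Its difference was 0.71 ± 0.05, with all 71 high-Cox8b mice above the low-Cox8b median. Cox5b, which binds zinc in the complex, ran from -0.26 to 0.995 in high-Cox8b mice (median 0.05), against -1.19 to 0.04 in low-Cox8b mice (median -0.51), a difference of 0.61 ± 0.04 (adjusted p = 5.58e-34). Cox4i1 ran from -0.27 to 1.001 in high-Cox8b mice (median 0.04), against -1.12 to 0.09 in low-Cox8b mice (median -0.50). The difference of Cox4i1 was 0.59 ± 0.04 (adjusted p = 1.24e-30). On the arrays where Cox4i1 equals Cox8b, it repeats the choice of mice. The shared range of Cox4i1 held 43 of 71 high-Cox8b and 9 of 71 low-Cox8b mice. Cox7b differed by 0.61 ± 0.04.

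The muscle form Cox7a1 ran from -0.78 to 0.64 in high-Cox8b mice (median 0.02), against -1.36 to 0.33 in low-Cox8b mice (median -0.65), and its difference was 0.60 ± 0.05. Within runs of mouse numbers it was 0.24 ± 0.05, while those of Cox7a2, Cox7c, Cox5b, Cox7b and Cox4i1 remained at 0.70, 0.66, 0.64, 0.72 and 0.59. The difference of Cox7a1 thus shrank more than 1.5 times with the block, and the others did not. Cox7a2l, which joins complexes III and IV into supercomplexes, was higher by 0.36 ± 0.04. Cox4i2, a subunit IV form known from lung, was higher by 0.29 ± 0.02, and Cox6b2, a form known from testis, by 0.16 ± 0.03. With the block Cox7a2l differed by 0.18 ± 0.05, and Cox6b2 by 0.07 ± 0.05 (adjusted p = 0.206), which lost the call. Cox8a, the form of subunit VIII in most tissues, ran from -0.29 to 1.55 in high-Cox8b mice (median 0.07), against -0.55 to 0.58 in low-Cox8b mice (median -0.05), a difference of 0.11 ± 0.04 (adjusted p = 0.0101). The ranges of Cox8a overlapped between -0.29 and 0.58, which holds both medians, and with the block its difference was 0.23 ± 0.05. Cox6a1, the VIa form of most tissues, ran from -0.83 to 2.62 in high-Cox8b mice (median -0.08), against -0.46 to 1.22 in low-Cox8b mice (median 0.16) and fell by 0.25 ± 0.07 (adjusted p = 0.00049). With the block that difference was 0.04 ± 0.08 (adjusted p = 0.658), so the call for Cox6a1 was lost. With the block 9 of the 11 genes were higher and 0 lower, with a median of 0.27.

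**Figure D2:**
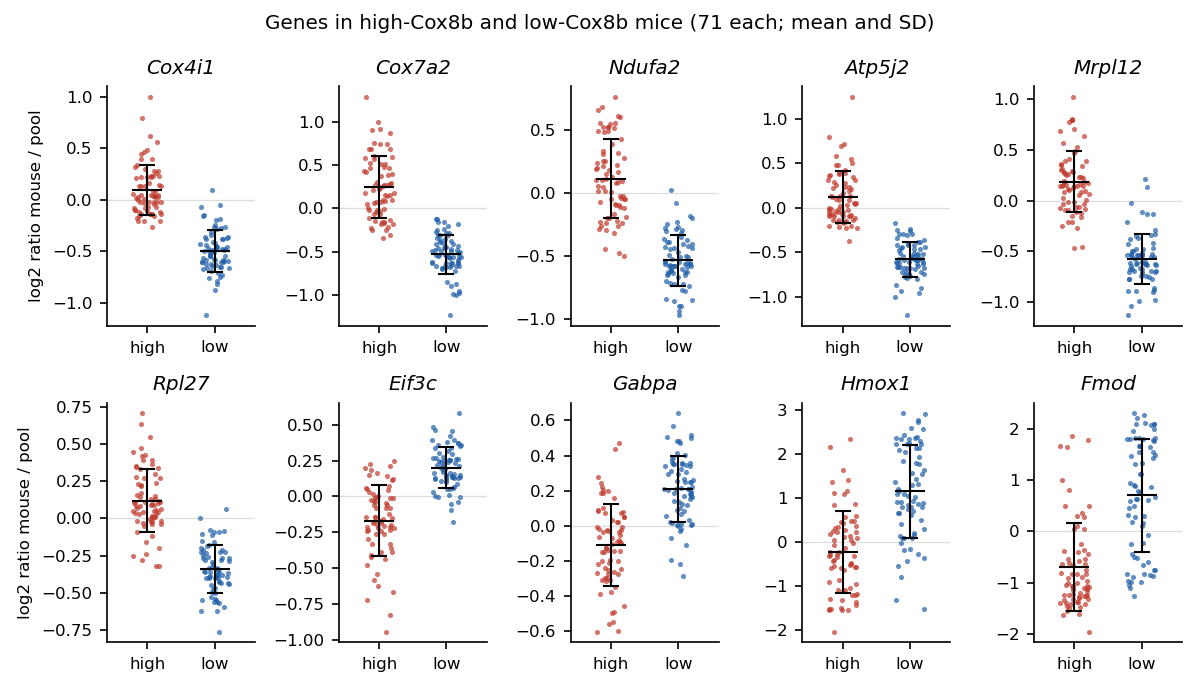
Log2 ratio of mouse over pool (vertical axis) of 10 genes in the 71 high-Cox8b (left) and the 71 low-Cox8b mice (right); each point is 1 mouse and the bars are the mean and SD. Cox7a2 averaged 0.25 ± 0.36 in high-Cox8b and -0.53 ± 0.22 in low-Cox8b mice, while Eif3c averaged -0.17 ± 0.25 and 0.20 ± 0.15.

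Complex V, which makes ATP, followed. Of 7 genes 6 were higher in high-Cox8b mice and 0 lower, with a median difference of 0.45. Atp5j2, subunit f of its membrane part, ran from -0.37 to 1.25 in high-Cox8b mice (median 0.05), against -1.21 to -0.17 in low-Cox8b mice (median -0.58). All 71 high-Cox8b mice were above the low-Cox8b median and all 71 low-Cox8b mice below the high-Cox8b median. The difference was 0.71 ± 0.04 (fold 1.63, adjusted p = 2.93e-33). On the arrays where Atp5j2 equals Cox8b, this separation repeats the choice of mice. Atp5e and Atp5j, the epsilon subunit and coupling factor 6, were higher by 0.63 ± 0.05 and 0.58 ± 0.04. Atp5g1, a gene of the rotating c ring, was higher by 0.45 ± 0.04, and Atpif1, the inhibitor of the enzyme, by 0.18 ± 0.02. Atp5h, subunit d, differed by 0.07 ± 0.04 (adjusted p = 0.0982), and was lower, at -0.15 ± 0.04, with runs of numbers as a block (adjusted p = 0.00127). The block also shrank Atp5g1 to 0.26 ± 0.04. With it 6 genes were higher and 1 lower, with a median of 0.26.

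Complex I, which takes electrons from NADH, had 14 genes on the array by name, of which 11 were higher and 0 lower, with a median of 0.21. The accessory subunit Ndufa2 ran from -0.50 to 0.76 in high-Cox8b mice (median 0.09), against -0.97 to 0.02 in low-Cox8b mice (median -0.56). Its difference was 0.65 ± 0.04 (adjusted p = 1.18e-28), and all 71 high-Cox8b mice were above the low-Cox8b median. Ndufb11 and Ndufa1 were higher by 0.62 ± 0.04 and 0.64 ± 0.05, and Ndufs4 by 0.51 ± 0.05. Ndufa13 and Ndufa10 were not called, with differences of -0.02 ± 0.04 and -0.05 ± 0.03. The block shrank Ndufa2 to 0.39 ± 0.05 and left 9 of the 14 higher and 0 lower, with a median of 0.12. No gene of the lists for complexes II and III was named among the probes used, and these were not analysed here. Among 15 assembly factors of the chain, 8 were higher and 3 lower, with a median of 0.10. Ecsit, needed to build complex I, was higher by 0.38 ± 0.03 and Ndufaf3 by 0.29 ± 0.03. Foxred1, also a complex I factor, fell by 0.34 ± 0.03, and Atpaf1, an assembly factor of complex V, fell by 0.13 ± 0.02. With the block the assembly factors had 7 higher and 4 lower, and the differences of Ndufaf3 and Foxred1 were 0.15 and -0.21.

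The enzymes that feed the chain moved in both directions. In fatty acid oxidation 7 of 13 genes were higher and 4 lower, with a median of 0.12, and with the block 5 and 1. Acads, the short-chain acyl-CoA dehydrogenase, ran from -0.64 to 0.89 in high-Cox8b mice (median 0.14), against -1.28 to 0.17 in low-Cox8b mice (median -0.87). Its difference of 0.91 ± 0.06 was a fold of 1.88 (adjusted p = 5.9e-32), with all 71 high-Cox8b mice above the low-Cox8b median, and it was 0.54 ± 0.06 with the block. Fabp3, the fatty acid binding protein of heart and muscle, was higher by 0.52 ± 0.04, and Cpt1b, the muscle form of the enzyme that commits fatty acids to mitochondria, by 0.37 ± 0.04. Slc25a20, which carries acylcarnitines across the inner membrane, fell by 0.53 ± 0.06 (adjusted p = 2.03e-14). Of 8 citric acid cycle genes 3 were higher and 2 lower, with a median of 0.02. Idh3b and Idh3g, subunits of NAD-dependent isocitrate dehydrogenase, were higher by 0.49 ± 0.04 and 0.29 ± 0.03. Cs, citrate synthase, fell by 0.10 ± 0.03, and Ogdh, of the oxoglutarate dehydrogenase complex, fell by 0.44 ± 0.07.

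Most genes of the mitochondrial ribosome and of protein import were higher. Of 30 mitochondrial ribosomal protein genes 21 were higher and 3 lower, with 15 higher by at least 0.2 and a median of 0.22. Mrpl12, which also binds the mitochondrial RNA polymerase, ran from -0.47 to 1.02 in high-Cox8b mice (median 0.16), against -1.13 to 0.22 in low-Cox8b mice (median -0.61). Its difference was 0.76 ± 0.05 (fold 1.69, adjusted p = 5.21e-32). Mrpl40 was higher by 0.48 ± 0.03, with all 71 high-Cox8b mice above the low-Cox8b median. Mrpl37 and Mrpl39 were lower, at -0.34 ± 0.04 and -0.18 ± 0.03. With the block 17 of the 30 were higher and 4 lower, and the median was 0.08, while Mrpl12 was higher by 0.48. Lars2, the mitochondrial leucyl-tRNA synthetase, was higher by 0.77 ± 0.05, while its list of 9 translation genes had 5 higher and 2 lower, a median of 0.05, and 1 and 1 with the block. Of 18 import genes 11 were higher and 4 lower, with a median of 0.14. The small chaperone genes Timm8b and Timm10b were higher by 0.54 ± 0.04 and 0.47 ± 0.03, and Timm9 fell by 0.26 ± 0.04. With the block 9 import genes were higher and 2 lower, and the differences were 0.50 for Lars2, 0.32 for Timm8b, 0.28 for Timm10b and 0.12 for Vdac1. Of 23 carriers and channels 10 were higher and 9 lower, with Vdac1, the outer membrane channel, higher by 0.20 ± 0.02. In the list of dynamics and mitophagy 5 of 17 were higher and 6 lower, and Bnip3, a mitophagy receptor, fell by 0.45 ± 0.06.

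The known regulators of mitochondrial genes did not share the direction of the subunits. Of 21 regulators 7 were higher and 9 lower, with 2 and 7 by at least 0.2, and the median difference was 0.00. Esrra, which encodes ERRα, ran from -0.52 to 0.60 in high-Cox8b mice (median 0.08), against -1.52 to 0.18 in low-Cox8b mice (median -0.21), a difference of 0.36 ± 0.04 (adjusted p = 8.71e-15), or 0.24 ± 0.05 with the block. Its relatives Esrrb and Esrrg were higher by 0.21 ± 0.06 and 0.18 ± 0.07, and Esrrb by 0.43 with the block. Smaller differences were found for Nrf1 (0.13 ± 0.03), the deacetylase Sirt3 (0.13 ± 0.03) and the mitochondrial transcription factors Tfb1m (0.11 ± 0.03) and Tfam (0.11 ± 0.03). Gabpa, the DNA-binding subunit of GABP, ran from -0.60 to 0.47 in high-Cox8b mice (median -0.10), against -0.28 to 0.64 in low-Cox8b mice (median 0.21). In 66 of 71 high-Cox8b mice it was below the low-Cox8b median, and its difference was -0.32 ± 0.04 (adjusted p = 6.2e-15), and -0.29 ± 0.05 with the block. Without the block the PGC-1 family was lower, with -0.46 ± 0.07 for Pprc1, -0.34 ± 0.08 for Ppargc1b and -0.29 ± 0.10 for Ppargc1a. For Ppargc1a, which encodes PGC-1α, the block gave 0.11 ± 0.13 (adjusted p = 0.491), and the call was lost. The difference of Ppargc1a was also above 0 among lower-numbered and among higher-numbered mice taken apart. Also lower were Ppara (-0.30 ± 0.09), Polg (-0.22 ± 0.04), Yy1 (-0.21 ± 0.07), Sirt1 (-0.16 ± 0.03) and Tfb2m (-0.08 ± 0.04). Ssbp1, Twnk, Polg2, Gabpb1 and Prkaa2 were not called, with differences of 0.02, 0.00, 0.00, 0.00 and 0.12. With the block 4 regulators were higher and 6 lower, and the lower ones include a gene not called without the block. In that fit the calls for Sirt3, Tfb1m, Tfam, Ppara, Polg and Tfb2m were lost. Their differences were 0.05, 0.05, 0.06, -0.12, -0.10 and -0.02 (adjusted p between 0.11 and 0.711).

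**Figure D3:**
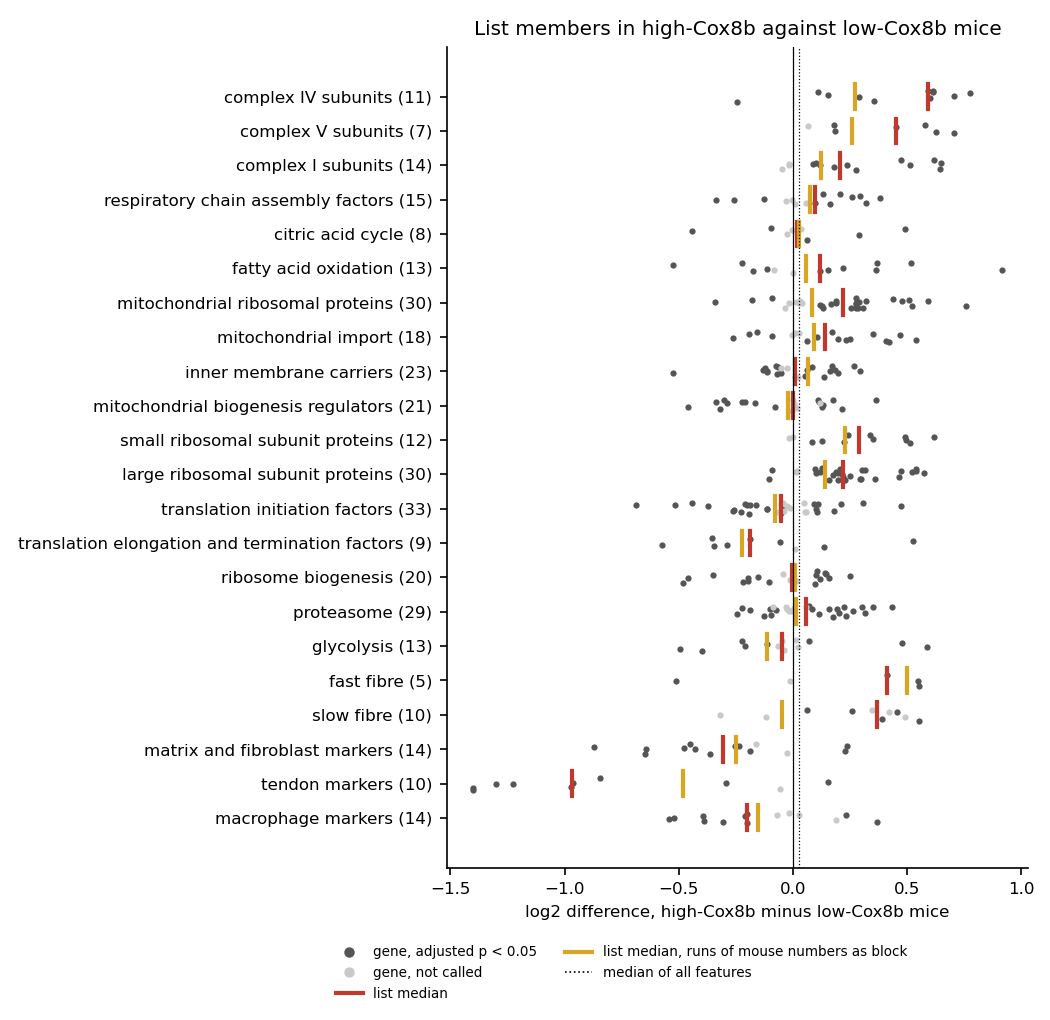
Log2 difference of high-Cox8b minus low-Cox8b mice (horizontal axis) for each gene of 22 lists (rows, with the number of genes), dark where the adjusted p was under 0.05; bars mark the list median without and with runs of mouse numbers as a block, and the dotted line the median of all features. The complex IV median is 0.59, and 0.27 with the block, and that of the regulators is 0.00. The 0.59 is the value of Cox4i1, which on some arrays equals Cox8b.

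The cytosolic ribosome, which makes all nuclear-encoded subunits, was higher as well. Of 12 small subunit proteins 10 were higher and 0 lower, with a median of 0.29. Of 30 large subunit proteins 26 were higher and 2 lower, with a median of 0.22. The mean over the large subunit genes ran from -0.17 to 0.35 in high-Cox8b mice, against -0.37 to 0.05 in low-Cox8b mice, and all 71 high-Cox8b mice were above the low-Cox8b median. Rpl27 ran from -0.32 to 0.71 in high-Cox8b mice (median 0.09), against -0.76 to 0.07 in low-Cox8b mice (median -0.36), a difference of 0.46 ± 0.03 (adjusted p = 4.88e-28). Fau, which encodes ribosomal protein S30 joined to a ubiquitin-like protein, was higher by 0.62 ± 0.04, Rps7 by 0.34 ± 0.02 and Rpl8 by 0.30 ± 0.02. The 2 that were lower, Rplp0 of the stalk and Rpl3, differed by -0.09 ± 0.03 and -0.10 ± 0.04. Rpsa and Rps6 were not called, at 0.00 ± 0.02 and -0.02 ± 0.02. For Rps6 the probe with the largest SD gave 0.44, so its 6 probes disagree. With the block the calls for Rplp0 (adjusted p = 0.092) and Rpl3 (adjusted p = 0.393) were lost. In that fit 8 small subunit genes were higher and 1 lower, and 24 large subunit genes were higher and 0 lower, with medians of 0.23 and 0.14. Ribosomal protein genes have many processed copies in the genome, and whether a probe also binds those was not tested.

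Factors that work with the ribosome did not follow its proteins. Of 33 initiation factor genes 8 were higher and 16 lower, with 3 and 9 by at least 0.2 and a median of -0.05. Eif3h, a subunit of eIF3, ran from -0.34 to 0.88 in high-Cox8b mice (median 0.09), against -0.64 to -0.09 in low-Cox8b mice (median -0.35), a difference of 0.47 ± 0.03 with all 71 high-Cox8b mice above the low-Cox8b median. Eif3c, a core subunit of the same complex, ran from -0.94 to 0.25 in high-Cox8b mice (median -0.16), against -0.18 to 0.58 in low-Cox8b mice (median 0.20), and fell by 0.37 ± 0.03 (adjusted p = 4.36e-19). In 68 of 71 high-Cox8b mice Eif3c was below the low-Cox8b median. Pabpc1, the poly(A)-binding protein, fell by 0.44 ± 0.04. Of 9 elongation and termination factors 2 were higher and 6 lower, with a median of -0.19. Eef1b2, the exchange factor of elongation factor 1, was higher by 0.53 ± 0.04, and Gspt1, the release factor eRF3, fell by 0.35 ± 0.03. Ribosome biogenesis genes split evenly, with 8 of 20 higher and 8 lower, and Fbl, the methyltransferase fibrillarin, and Rcl1 were lower, at -0.22 ± 0.03 and -0.48 ± 0.04. Of 10 cytosolic tRNA synthetase genes 4 were higher and 4 lower. With the block the initiation factors had 6 higher and 14 lower and the elongation and termination factors 1 and 5. In that fit the differences were -0.26 for Pabpc1 and -0.22 for Gspt1.

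The proteasome, which breaks down marked proteins, had 14 of 29 genes higher and 8 lower, with a median of 0.06, and 9 and 7 with the block. Psmb5, its chymotrypsin-like subunit, was higher by 0.43 ± 0.03, and Psmd14, a deubiquitinase of its cap, fell by 0.19 ± 0.03. Glycolysis had 3 of 13 genes higher and 5 lower, and 2 and 7 with the block. Ckm, counted in that list, ran from -0.95 to 0.62 in high-Cox8b mice (median -0.01), against -0.92 to 0.26 in low-Cox8b mice (median -0.47), a difference of 0.48 ± 0.04. Gpd1, which links glycolysis to lipid synthesis, was higher by 0.59 ± 0.05, but by 0.18 ± 0.05 with the block. Pgm2 and Phka1, of sugar phosphate and glycogen breakdown, were lower, at -0.50 ± 0.05 and -0.40 ± 0.04, and Pgm2 was at -0.25 with the block.

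Fibre type was read from lists of fast and slow fibre genes. Of 5 fast fibre genes 3 were higher and 1 lower, with a median of 0.41. Mylpf ran from -0.45 to 1.09 in high-Cox8b mice (median 0.01), against -1.27 to 0.00 in low-Cox8b mice (median -0.47), and all 71 high-Cox8b mice were above the low-Cox8b median. Pvalb, the calcium buffer of fast fibres, was higher by 0.55 ± 0.04, and Casq1, the fast calsequestrin, fell by 0.51 ± 0.07. Of 10 slow fibre genes 5 were higher and 0 lower, with a median of 0.37, yet with the block 1 was higher and 2 were lower and the median was -0.05. Casq2, the cardiac and slow calsequestrin, was higher by 0.26 ± 0.03. Atp2a2, the slow calcium pump, differed by -0.32 ± 0.18 (adjusted p = 0.108). The mean over the slow fibre list ran from -2.48 to 0.83 in high-Cox8b mice and from -2.68 to 1.09 in low-Cox8b mice, so both held mice across almost the whole span. With a slow fibre score as a covariate the complex IV median was 0.58 and that of complex V 0.44. The complex IV median was here again the value of Cox4i1. Ucp3, the uncoupling protein of muscle, fell by 0.28 ± 0.06.

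Several stress and fasting genes were lower. Of 14 immediate early genes 0 were higher and 9 lower, with a median of -0.20, though with the block 1 was higher and 2 were lower. Egr2 fell by 0.89 ± 0.12 and Myc fell by 0.69 ± 0.09. In heat shock 1 of 10 was higher and 5 were lower, and 1 and 3 with the block. The higher one was Hspa5, the chaperone of the endoplasmic reticulum, at 0.51 ± 0.04, and Bag3, a cochaperone of muscle, fell by 0.60 ± 0.07. Of 8 genes of atrophy and fasting 2 were higher and 6 lower, and 2 and 3 with the block. Pdk4, which limits glucose oxidation in fasting, was higher by 0.48 ± 0.05. Fkbp5, a target of glucocorticoids, ran from -1.75 to 1.05 in high-Cox8b mice (median -0.20), against -1.16 to 1.41 in low-Cox8b mice (median 0.80) and fell by 0.95 ± 0.09 (adjusted p = 2.51e-19). Antioxidant genes had 7 of 19 higher and 7 lower, among them Sod1 (0.39 ± 0.04) and Gclc of glutathione synthesis (-0.51 ± 0.05). The integrated stress response had 3 of 7 higher and 3 lower. With the block the differences were -0.58 for Egr2, -0.40 for Myc and -0.62 for Fkbp5.

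Markers of other cell types moved with the groups too. Of 10 tendon genes 1 was higher and 8 were lower, with a median of -0.97 and of -0.48 with the block, where 0 were higher and 7 lower. Fmod, a collagen-binding proteoglycan of tendon, ran from -1.95 to 1.86 in high-Cox8b mice (median -1.01), against -1.26 to 2.30 in low-Cox8b mice (median 0.79), a difference of -1.40 ± 0.16 (fold 0.379, adjusted p = 9.68e-14). In the block fit the difference of Fmod was -0.72 ± 0.15. All mice numbered 271 to 310 had Fmod above 0.79, whatever their Cox8b group. Numbers 271 to 290 held 0 high-Cox8b and 6 low-Cox8b mice, and numbers 291 to 310 held 2 and 12. The mean over the tendon list ran from -1.19 to 1.29 in high-Cox8b mice and from -1.20 to 1.73 in low-Cox8b mice, so both groups held mice with high and with low tendon genes. Of 14 matrix and fibroblast genes 2 were higher and 10 lower, with a median of -0.31, and Col6a3 fell by 0.65 ± 0.07. Their mean ran from -0.62 to 0.35 in high-Cox8b mice, against -0.59 to 0.97 in low-Cox8b mice. Of 14 macrophage genes 2 were higher and 8 lower, with means from -0.76 to 0.48 in high-Cox8b mice and from -0.90 to 0.81 in low-Cox8b mice. Lyz1 and Mrc1 were lower, at -0.54 ± 0.08 and -0.52 ± 0.08, and Cd68 was higher by 0.37 ± 0.03. Of 12 endothelial genes 3 were higher and 8 lower, with Tie1 at 0.72 ± 0.08, or 0.36 ± 0.11 with the block, and Vwf at -0.57 ± 0.06. The endothelial mean ran from -0.56 to 0.26 in high-Cox8b mice and from -0.16 to 0.29 in low-Cox8b mice. Smooth muscle had 2 of 6 higher and 4 lower, and Myh11 fell by 0.67 ± 0.07. The smooth muscle mean ran from -1.06 to 0.92 in high-Cox8b mice and from -0.27 to 0.65 in low-Cox8b mice. With the block the matrix list had 1 higher and 9 lower, the macrophage list 3 and 5, the endothelial list 2 and 7 and the smooth muscle list 1 and 4, and Cd68 was higher by 0.21. The part of these cells in the differences above was not tested.

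Adipocyte and lymphocyte lists showed no shared direction. White adipocyte genes had 3 of 10 higher and 3 lower, and Fabp4 was higher by 0.46 ± 0.06 while Plin1 fell by 0.57 ± 0.10 (-0.33 with the block). The white adipocyte mean ran from -0.41 to 1.01 in high-Cox8b mice and from -0.39 to 0.63 in low-Cox8b mice. Of 10 brown adipocyte genes, of which Cox7a1 and Cpt1b are also muscle genes, 2 were higher and 3 lower. Lymphocyte genes had 4 of 11 higher and 5 lower, and 4 and 0 with the block. Cd22 and Ptprc were lower, at -0.995 ± 0.26 and -0.91 ± 0.17, and with the block their differences were -0.16 ± 0.29 and -0.42 ± 0.21 (adjusted p = 0.651 and 0.0738), so both calls were lost. The lymphocyte mean ran from -0.47 to 1.98 in high-Cox8b mice and from -0.43 to 2.40 in low-Cox8b mice.

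Over all named genes, the 12 with the largest rise that kept their sign among both lower-numbered and higher-numbered mice were Pigt, Tcf7l2, Bak1, Taf8, Kdelr1, Eml2, Acads, Gigyf2, Spr, Fbxw2, Pkdcc and Irx3, with differences from 1.29 for Pigt to 0.87 for Irx3. Acads was the one list member among them. Pigt, a part of the enzyme that attaches GPI anchors, ran from -1.31 to 1.74 in high-Cox8b mice (median 0.12), against -2.11 to -0.33 in low-Cox8b mice (median -1.04). Its difference was 1.29 ± 0.08 (fold 2.45, adjusted p = 4.67e-30), and 0.94 ± 0.11 with the block. Tcf7l2, a transcription factor of Wnt signalling, was higher by 1.22 ± 0.07 and by 0.93 with the block. Bak1, a pore-forming protein of apoptosis, was higher by 1.20 ± 0.11, but by 0.39 ± 0.11 with the block. Kdelr1 retrieves proteins to the endoplasmic reticulum and was higher by 1.12 ± 0.07. Taf8 is a part of the general transcription factor TFIID and was higher by 1.13 ± 0.11. With the block Kdelr1 was higher by 0.71 and Taf8 by 0.53.

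The 12 with the largest fall were Sema3e, Fmod, Chad, Hmox1, Tnc, Kera, Lox, Per2, Taf9b, Sh3bgrl, Ankrd1 and Prg4, from -1.48 for Sema3e to -1.23 for Prg4. Fmod, Chad, Tnc, Kera and Prg4 encode matrix proteins of tendon, cartilage or joint, and Lox cross-links collagen. Sema3e, a guidance cue for vessels and axons, ran from -6.64 to 1.13 in high-Cox8b mice (median -0.36), against -0.58 to 6.64 in low-Cox8b mice (median 0.88). The deposited values are bounded, and ±6.64 is that bound on the log2 scale. The difference of Sema3e was -1.48 ± 0.16 (adjusted p = 4.05e-15), and -1.41 ± 0.23 with the block. Hmox1, which degrades heme, ran from -2.04 to 2.34 in high-Cox8b mice (median -0.29), against -1.52 to 2.92 in low-Cox8b mice (median 1.08), a difference of -1.38 ± 0.17 and of -0.86 ± 0.22 with the block. Per2, of the circadian clock, fell by 1.27 ± 0.15 and Ankrd1, a stretch-responsive gene of muscle, fell by 1.23 ± 0.23, and with the block their differences were -0.57 and -0.74.

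The division by Cox8b was set against a ranking by Cox4i1, a probe that the choice of mice did not use. Its ratio equals that of Cox8b on some arrays, so the overlap of the rankings was partly fixed in advance. Of the 71 mice with the highest Cox4i1, 56 were high-Cox8b mice, and of the 71 with the lowest, 43 were low-Cox8b mice. Between these Cox4i1 groups 71.9% of features were called, 39.9% higher and 32.0% lower. Cox8b itself averaged 0.08 ± 0.34 in the high-Cox4i1 and -0.64 ± 0.20 in the low-Cox4i1 mice (SD, n = 71), which describes the same relation as the Cox4i1 difference above. The list medians were 0.42 for complex IV, 0.42 for complex V, 0.21 for complex I, 0.15 for the large ribosomal subunit and -0.69 for tendon. Cox4i1 was left out of this fit, and the other complex IV genes had 9 higher and 1 lower. Their 0.42 is thus not over the same genes as the 0.59 above. The rankings share mice, arrays and in some mice the ranking value itself, so these values stand side by side only.

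**Figure D4:**
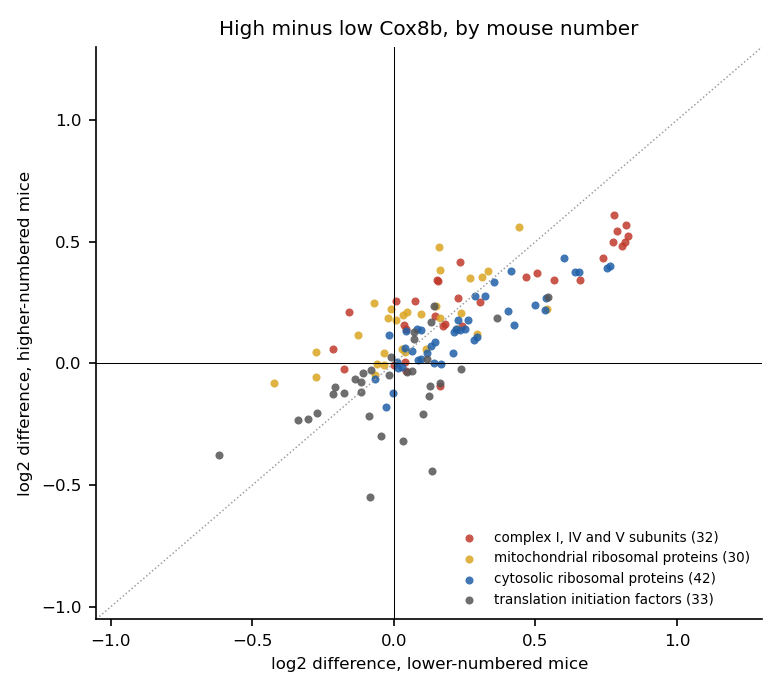
Log2 difference of high-Cox8b minus low-Cox8b mice among lower-numbered mice (horizontal axis, 60 against 12 mice) and higher-numbered mice (vertical axis, 11 against 59 mice), 1 point per gene of 4 kinds; the dotted line marks equal values. Most respiratory chain and cytosolic ribosomal genes lie above 0 on both axes, and Cox4i1 is at 0.74 and 0.43. On some arrays of lower-numbered mice Cox4i1 equals Cox8b. Cox7a2 is at 0.78 and 0.61.

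Because mouse number and Cox8b group move together, the groups were compared among lower-numbered and higher-numbered mice apart. Among the lower-numbered mice 30.0% of features were higher and 25.5% lower, and among the higher-numbered mice 26.0% and 16.0%. Complex IV had 6 of 11 genes higher and 1 lower among the lower-numbered mice (median 0.30) and 9 and 0 among the higher-numbered mice (median 0.34). Of 30 large ribosomal genes 21 were higher among lower-numbered and 19 among higher-numbered mice, and 0 were lower in either. For the mitochondrial ribosome the medians were 0.04 among the lower-numbered and 0.19 among the higher-numbered mice. The difference between higher-numbered and lower-numbered mice itself passed an adjusted p of 0.05 for 1642 features (7.63%), Cox4i1 among them.

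The 143 mice in between took no part in the comparison of high-Cox8b with low-Cox8b mice. Their Cox8b ratios spanned only -0.58 to -0.11. Over these mice 14.2% of features rose and 11.1% fell with Cox8b at an adjusted p under 0.05 (limma slope per log2 unit of Cox8b). The slope had no term for mouse number or array SD. Cox8b and the other genes of a mouse were again read on the same array. Cox4i1 rose by 0.71 ± 0.09 per log2 unit of Cox8b (adjusted p = 1.12e-10). Cox7a2 rose by 0.84 ± 0.14, Cox7c by 0.75 ± 0.09, Atp5j2 by 0.77 ± 0.08 and Rpl27 by 0.48 ± 0.07. In some of these mice Cox4i1 and Atp5j2 equal Cox8b, at -0.2866 in mouse 112 and -0.3391 in mouse 122. The slopes of Cox4i1 and Atp5j2 are therefore not separate from the Cox8b values. Of the complex IV genes 9 of 11 rose and 0 fell, of complex V 4 of 7 rose and 0 fell, and of complex I 5 of 14 rose and 0 fell. Of the large ribosomal genes 12 of 30 rose and 0 fell, and of the initiation factors 1 of 33 rose and 12 fell. Esrra rose by 0.41 ± 0.11, while the slope of Gabpa was -0.19 ± 0.13 (adjusted p = 0.273). Of the 10 tendon genes 0 rose and 0 fell, and their median slope was 0.76, opposite in sign to their difference between the groups. Of the 3455 features higher by at least 0.2 in high-Cox8b mice 2092 also rose in these mice and 0 fell, and of the 4118 lower features 1652 also fell and 0 rose. Of the lower features, 446 had a slope of the opposite sign that was not called.

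**Figure D5:**
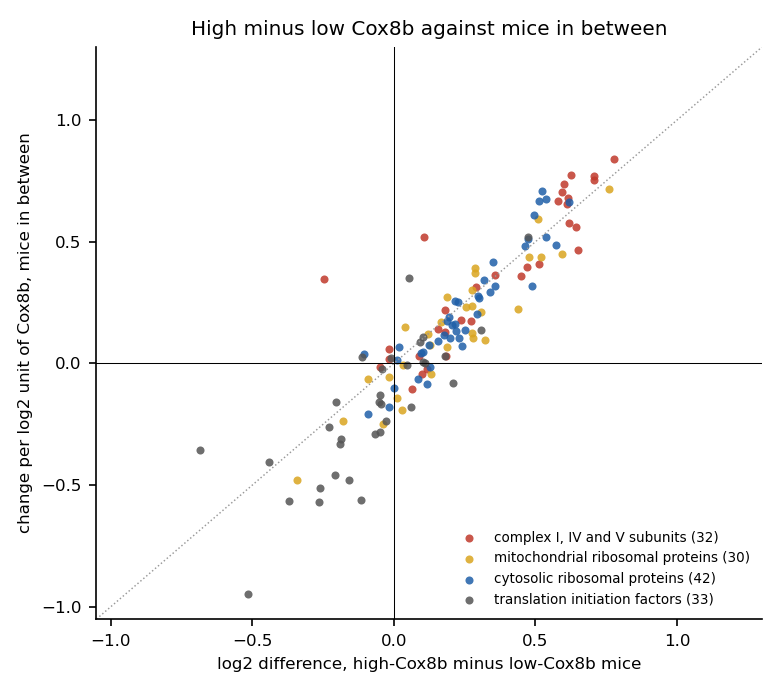
Log2 difference of high-Cox8b minus low-Cox8b mice (horizontal axis) against the slope on Cox8b over the 143 mice in between (vertical axis, log2 per log2 unit of Cox8b), 1 point per gene of 4 kinds; the dotted line marks equal values. Cox4i1 is at 0.59 and 0.71, and Eif3c at -0.37 and -0.57. On some arrays Cox4i1 equals Cox8b, on both axes. Cox7a2 is at 0.78 and 0.84.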

How the data were processed

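RNA of skeletal muscle from 285 F2 mice was read on 2-colour arrays of 23560 probes, each mouse (Cy3) against 1 common pool (Cy5). The authors' deposited series table holds 1 log value per probe and array, bounded at ±2, with the log base not stated. The deposited values were read as log10 and converted to log2, and array medians of the deposited values lay between -0.0222 and 0.0173. Background correction and normalization before deposit are not given in the sources used here. The number of arrays limits the precision.

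Of these, 23510 probes held values on 80% of the arrays or more and were kept, and 0.0018% of their values were missing and left out of the fit. A platform table gave 1 symbol to 13653 probes, several to 48 and none to 9859. Probes of 1 symbol were averaged, which gave 11622 named genes and 9890 unnamed probes. Groups were compared with limma 3.58.1 (lmFit, eBayes) in R 4.3.3 with Benjamini-Hochberg adjustment over 21511 features and no covariate, after testing on simulated data. The labels give a mouse its number alone, save that 4 titles, 3 of them of high-Cox8b mice, carry an unexplained (2). The members, lists and named genes were chosen with earlier results of these data known. Named were all complex IV subunits, the 12 largest rises and falls of one sign among lower-numbered and higher-numbered mice, all regulators and Y-linked genes, and up to 4 members of each list by their moderated t. Alternatives changed the block, the samples, the scaling, the ranking gene, the filter, the probe rule and the log base. Tests on mouse number and array SD were permutation tests (100000 resamples, numpy 2.4.6).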

Additional observations from a re-analysis of the deposited data

Results flagged for a closer look

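The difference between high-Cox8b and low-Cox8b mice was itself different in the higher-numbered and the lower-numbered mice for 1642 features (limma interaction, adjusted p under 0.05), 7.63% of those tested. The values that follow are the higher-numbered minus the lower-numbered difference, in log2, for the genes named above that passed this test. For Cox4i1 it was -0.30, with group differences of 0.43 ± 0.06 in higher-numbered and 0.74 ± 0.08 in lower-numbered mice (adjusted p = 0.0401). Cox4i1 was thus higher in high-Cox8b mice in each set. The arrays on which Cox4i1 equals Cox8b were of lower-numbered mice, and their part in this value was not tested. The ribosomal and translation genes Rpl27, Rps7, Eif3h and Eef1b2 had values of -0.27, -0.19, -0.27 and -0.36. Among fast fibre genes Mylpf had -0.47 and Pvalb -0.33. The estrogen-related receptor genes Esrrb and Esrrg had -0.54 and -0.57, and Esrrg was higher by 0.53 ± 0.11 in lower-numbered mice, against a difference of -0.04 ± 0.15 in higher-numbered mice. Hspa5 had -0.38 and Psmb5 -0.23. The value was positive for Ndufa10 (0.37), Mrpl37 (0.34) and Idh3g (0.22). The sets are unequal, with 11 high-Cox8b and 59 low-Cox8b mice among the higher-numbered and 60 and 12 among the lower-numbered mice.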

How the results depend on the processing

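Of 2555 values for 142 named genes under 18 settings, 2319 kept their direction and side of the threshold, 132 lost the call and 17 gained it. In 50 the sign differed with no call in either fit, and in 37 it turned where at least 1 fit made a call. Of the counts over all features, those higher in high-Cox8b mice (8985) became 5591 among higher-numbered mice and 3053 as rising slopes over the mice in between. Those lower (6912) became 3447 and 2398 there, and 4567 among mice numbered 51 to 90 and 271 to 310. Features higher by at least 0.2 (3455) became 5854 with the 10% of mice at each end. Those lower by at least 0.2 (4118) became 2583 among higher-numbered mice. Read as log2 instead of log10, these counts were 113 higher and 286 lower, since the size rule then asks for a larger step. Fewer mice were fitted in the number settings. The 37 values that turned with a call were as follows. With runs of numbers as a block Atp5h was -0.15, Cox6a1 0.045, Fgg 0.46, Ppargc1a 0.11 and Rpsa -0.068. Among lower-numbered mice Atp5h was -0.18, Fgg 0.11, Ppara 0.042, Ppargc1a 0.40, Sirt3 -0.037 and Tfb2m 0.016. Among higher-numbered mice Cox6a1 was 0.061, Esrrg -0.038, Fgg 0.52, Ndufa10 0.21, Ppara 0.074, Ppargc1a 0.068, Tfam -0.020 and Tfb1m -0.016. Slopes over the mice in between were opposite for Chad (1.03), Cox6a1 (0.35), Fmod (0.37), Kera (0.91), Ogdh (0.25), Prg4 (0.98), Rpl3 (0.038), Tfam (-0.17), Tfb1m (-0.022) and Tnc (0.15). Among mice numbered 51 to 90 and 271 to 310 Rps6 was 0.10 and Tfb2m 0.050. With a slow fibre covariate Myh7 was -0.37 and Tnnt1 -0.20. With the probe of largest SD Rpl3 was 0.087, Rps6 0.44 and Rpsa -0.26, and without the filter on missing values Ndufa13 was 0.13. The cause was not tested. No paired analysis was possible because a mouse number names 1 mouse and is not shared between the groups.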

Other observations

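Some further groups of genes bear on the tissue rather than on mitochondria. Of 7 erythroid genes 4 were higher in high-Cox8b mice and 2 lower, with a median difference of 0.23, or 0.06 with runs of mouse numbers as a block (2 higher, 2 lower), and the alpha globin gene Hba-a1 ran from -1.39 to 1.67 in high-Cox8b mice (median -0.06), against -1.71 to 0.76 in low-Cox8b mice (median -0.56). Of 6 skin genes 4 were higher and 0 lower, none by 0.2, and of 6 Schwann cell genes 2 were higher and 2 lower. Of 8 liver genes 1 was higher and 3 were lower, and Fgg, a fibrinogen chain, differed by -0.89 ± 0.28, but by 0.46 ± 0.34 with runs of mouse numbers as a block (adjusted p = 0.235). Of the 3 Y-linked genes Eif2s3y differed by 0.65 ± 0.49 (adjusted p = 0.225) and Kdm5d by -0.31 ± 0.28 (adjusted p = 0.303). Usp9y was higher by 0.24 ± 0.03 over a narrow range of ratios.

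Genes that were higher in high-Cox8b mice lay in shorter stretches of the genome than genes that were lower. Among named genes with an annotated span (94.0%), the median span was 14.9 kb for those higher by at least 0.2, 31.1 kb for those lower by at least 0.2 and 21.8 kb for all. Among the 2730 genes with the shortest spans 19.9% were higher and 13.0% lower by at least 0.2, and among the 2730 with the longest 10.8% were higher and 27.3% lower. Complex IV genes had a median span of 3.31 kb and cytosolic ribosomal genes of 3.15 kb. The part of span in the differences of these lists was not tested.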
